A study of Mus musculus with 48 samples.

Results

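The bulk libraries of injured mouse brain taken 3 days after permanent middle cerebral artery occlusion (MCAO) were compared with those taken 3 days after sham surgery. The comparison held 9 of the 48 libraries in the series, 5 titled MCAO (replicates A to E) and 4 titled sham (replicates A to D), and they were chosen by their titles alone. The mice were 3-month-old males of the C57Black/6 strain. In the MCAO mice the artery was reached through a drilled hole in the skull under isoflurane, closed by coagulation and cut through, and the sham mice went through the operation without coagulation of the artery. Blood flow was therefore not restored, and the model leaves a small infarct in the parietal cortex. The tissue was named for the injured cortex but also held brain outside the lesion, and for bulk RNA it came to almost the whole hemisphere on that side, so each library mixes lesion with other regions of the forebrain. The paper counts its bulk replicates as mice, and no label ties a library to an animal. The p-values of gene tests rest on the spread of libraries within all 11 groups of the series, not the day 3 groups alone. Values are in CPM, counts scaled to a library of 1000000 with TMM factors over all 48 libraries, and are given in the order of the replicate letters, which carry no order of their own. Where values of both groups stand together, those after MCAO come first, and a log2 fold change is MCAO minus sham. The ± after a log2 fold change is an approximate standard error. It is the size of the change divided by the square root of the F statistic of its test. Libraries at 24 hours (4 MCAO, 4 sham) and day 7 (5 MCAO, 4 sham) and 4 libraries of unoperated 3-month-old controls were used for reference. The series text speaks of 3 hemispheres for each time point, where the sample labels list 4 or 5 libraries.

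After a cortical artery is closed, neurons in its territory die within hours. Resident microglia, the macrophages of the brain, then turn reactive and divide, while neutrophils and monocytes enter from the blood and astrocytes around the lesion build up intermediate filaments. Dead tissue is cleared by phagocytosis and lysosomal digestion, and fibroblasts and vessels start to lay down new matrix. In bulk RNA, more cells of a type and more RNA of a gene per cell cannot be told apart.

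Counts on genes ranged from 1865528 to 2194243 in the 5 MCAO libraries and from 2134860 to 2826735 in the 4 shams. Markers of neurons, the check on the tissue label, summed to 22450.0 to 31066 CPM in sham. Striatal markers, as a check on the regions held, ranged from 415 to 3371 CPM after MCAO and from 661 to 1921 CPM in sham, and their highest sum lay in MCAO replicate D. The MCAO libraries differed from each other. Replicate A had the lowest level of the 5 in 685 of the 750 genes called higher (91.3%), against 21.7% of all genes tested. Replicate C had the highest level in 430 of the 750 (57.3%), against 22.8% of all genes tested. Hemoglobin and erythroid RNA summed to 97.7, 251, 478, 273 and 173 CPM after MCAO, to 12.2 to 23.6 CPM in sham and to 38.5 to 117 CPM in unoperated controls. The part of dissection and of blood in the results was not tested. Of the genes named here, 20 overlap another listed gene on the same strand and 43 on the opposite strand, and the sources used here do not state the strand setting of the counting.

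Of 19970 genes tested, 750 were called higher and 52 lower after MCAO, by edgeR at a threshold of 0.01 on the adjusted p together with a log2 fold change beyond 0.58 in either direction. The rises were 3.76% and the falls 0.260% of the genes tested. Rises were also larger. The median log2 fold change of the genes called higher was 2.29 (range 0.59 to 8.66) and that of the genes called lower was -0.76 (range -3.04 to -0.58), where the median of all genes was 0.01. Among the rises 433 exceeded 2 on the log2 scale and 142 exceeded 4. All 5 MCAO libraries lay above all 4 shams in 414 of the 750 rises, against 4.33% of all genes, and below them in 39 of the 52 falls, against 2.81% of all genes. The count moved by more than 1.5 times with single libraries. It was 1353 (1088 higher, 265 lower) without MCAO replicate A, 441 without C, 484 without E and, without sham replicates A to D in turn, 503, 526, 526 and 495. With replicates A and C both left out it was 836 (735 higher, 101 lower), and with the 9 libraries of day 3 fitted alone it was 339. Scaled to the spike-ins instead, 463 genes were called higher and 131 lower, with the median of all genes at -0.22.

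**Figure D1:**
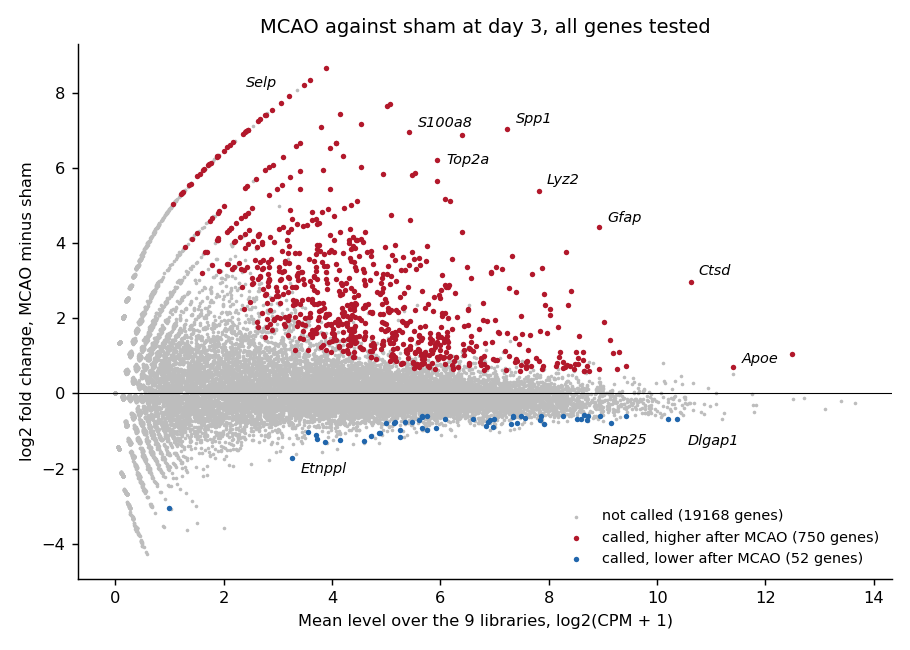
Each point is 1 of the 19970 genes tested, with its mean level over the 9 libraries of day 3 on the horizontal axis, as log2(CPM + 1), and its fitted log2 fold change, MCAO minus sham, on the vertical axis. The 750 genes called higher reach 8.66 and the 52 called lower reach -3.04, and *Gfap*, *Lyz2* and *Ctsd* are among the rises at high level.

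The largest rises, among called genes with a mean of at least 5 CPM and no overlap between the groups, were in *Saa3*, *Selp*, *S100a9*, *Clec7a*, *Ccl4*, *C5ar1*, *Runx3*, *H19*, *Mki67*, *Spp1*, *S100a8*, *Ube2c*, *Ccr2*, *Pbk* and *Top2a*. *Spp1* (chr5:104435118-104441050, GRCm38) encodes osteopontin, a secreted phosphoprotein that binds integrins and CD44. It was at 4.80, 109.8, 592, 69.8 and 561 CPM after MCAO and at 1.45, 3.69, 0.934 and 1.87 CPM in sham (log2 fold change 7.05 ± 1.21, adjusted p = 6.64e-05). Replicates C and E were highest, and A, the lowest, was still above the highest sham. *Saa3*, an acute phase serum amyloid A protein, was at 0.534, 2.26, 65.4, 5.37 and 18.5 CPM after MCAO and gave no count in any sham. Against a floor of 3 counts over the sham group this was at least 56.0-fold higher. *Selp* encodes P-selectin, which endothelium and platelets show to rolling leukocytes. It was at 0.534, 4.07, 43.9, 6.35 and 19.4 CPM after MCAO and at 0 in all shams, at least 45.7-fold higher by the same floor. In unoperated controls *Selp* was at 0, 0, 3.95 and 6.28 CPM. In both genes replicate C stood highest and replicate A gave 1 count.

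Others of the 15 were also absent from the shams. *Clec7a*, the beta-glucan receptor Dectin-1 and a marker of reactive microglia, was at 0.534, 7.68, 22.5, 13.2 and 13.7 CPM, at least 35.7-fold higher. *C5ar1*, the receptor for the complement peptide C5a, was at 1.07, 5.42, 22.5, 8.30 and 14.98 CPM and at least 32.4-fold higher. The transcription factor *Runx3* was at 0.534, 6.78, 26.5, 4.88 and 9.70 CPM and at least 29.8-fold higher. Replicate A was lowest and C highest in these 3 genes. *H19*, an imprinted noncoding RNA that is abundant in fetal tissue, was at 1.601, 36.1, 24.0, 15.6 and 121 CPM after MCAO and gave 2 counts over the 4 shams (438 after MCAO), a ratio of 194-fold (95% interval 53.3 to 1604) that covers counting error only. Here replicate E was highest, at more than 3 times the level of any other library.

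**Figure D2:**
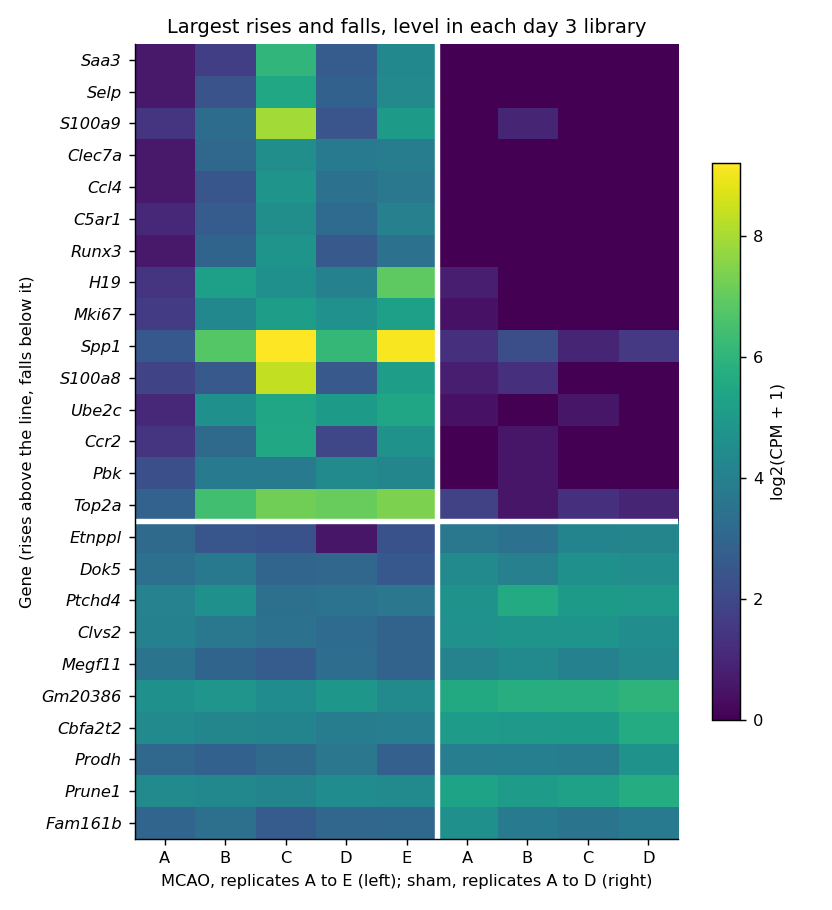
Level of the 15 largest rises and 10 largest falls, as log2(CPM + 1) in color, in the 5 MCAO libraries (left) and the 4 sham libraries (right) of day 3. Rises are low in every sham and vary among the MCAO libraries, with replicate A lowest in most, and the falls differ less between the groups.

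Microglial genes rose, both those of the resting state and those of the reactive state. Of 15 homeostatic markers tested, 8 rose (53.3%, beside 3.76% of all genes) and none fell, with a median log2 fold change of 1.24. Of 25 genes of reactive microglia, 17 rose and none fell, with a median of 2.79. The homeostatic count was 5 without sham replicate C and when scaled to the spike-ins. Among the homeostatic markers *Cx3cr1*, the fractalkine receptor, was at 223, 351, 554, 439 and 521 CPM after MCAO and at 131, 135, 142 and 80.6 CPM in sham (log2 fold change 1.77 ± 0.29, adjusted p = 3.77e-05). *Csf1r*, the receptor that keeps microglia alive, was at 397 ± 174 CPM (SD, n = 5) after MCAO and 82.8 ± 19.5 CPM (SD, n = 4) in sham (log2 fold change 2.26 ± 0.31, adjusted p = 1.32e-06). *Fcrls* rose by 3.65 ± 0.45 on the log2 scale. Members that were not called included *P2ry12*, the purinergic receptor of surveying microglia, at 23.9 ± 7.73 CPM (SD, n = 5) and 16.1 ± 4.96 CPM (SD, n = 4) (adjusted p = 0.352), and *Tmem119*, at 44.8 ± 17.6 CPM (SD, n = 5) and 23.7 ± 4.12 CPM (SD, n = 4) (adjusted p = 0.0478).

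*Trem2*, a microglial receptor for lipids and lipoproteins, was at 13.9, 45.6, 70.4, 50.8 and 59.5 CPM after MCAO and at 7.62, 9.69, 2.80 and 7.03 CPM in sham (log2 fold change 2.81 ± 0.49, adjusted p = 8.21e-05). All MCAO libraries lay above all shams, and replicate A stood well below the other 4. Its adaptor *Tyrobp* rose too (log2 fold change 3.59 ± 0.51, adjusted p = 2.95e-06), from 10.1 to 123 CPM on average. *Apoe*, a lipoprotein that TREM2 binds, was at 2492, 2817, 3530.2, 2411 and 4318 CPM after MCAO and 2080.2, 1985, 2425 and 2256 CPM in sham (log2 fold change 0.51 ± 0.24, adjusted p = 0.207), and was not called. Replicate D lay within the sham range and the other 4 above it. The lysosomal protease *Ctsd* was at 474, 1824, 4122, 2419.6 and 4005 CPM after MCAO and 351, 321, 309 and 339 CPM in sham (log2 fold change 2.96 ± 0.47, adjusted p = 1.56e-05), with no overlap. *Lgals3*, which encodes galectin-3, was at 1.601, 85.9, 282, 102 and 277 CPM and 1.09, 1.85, 0 and 1.87 CPM (log2 fold change 6.90 ± 1.09, adjusted p = 1.79e-05), with replicate A inside the sham range. *Gpnmb* (5.67 ± 1.09 on the log2 scale), *Cd68* (3.52 ± 0.55), *Cd9* (2.23 ± 0.43) and *Cd63* (2.36 ± 0.36), membrane proteins of phagocytes and their endosomes, also rose.

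Genes listed as markers of monocyte-derived macrophages were high mainly in replicates C and E. The list includes *Fn1*, given below as a matrix gene, and the cells of origin were not tested. The summed level of 15 genes of monocyte-derived macrophages was 71.0, 392, 1649.5, 440.5 and 1431 CPM after MCAO and 41.7 to 50.6 CPM in sham. Of these genes 9 rose (60%, beside 3.76% of all genes). *Lyz2*, the myeloid lysozyme, was at 21.4, 202, 797, 265 and 708 CPM after MCAO and at 6.53, 9.23, 6.07 and 16.4 CPM in sham (log2 fold change 5.39 ± 0.91, adjusted p = 4.95e-05). *Ccr2*, the receptor by which monocytes follow CCL2, was at 1.601, 8.13, 43.4, 2.93 and 25.6 CPM after MCAO with 1 count over the shams, a ratio of 152-fold (95% interval 26.9 to 6040.2). *Arg1*, arginase 1, was at 0, 12.7, 140.3, 14.2 and 115 CPM after MCAO and gave 2 counts in sham, with replicate A at 0 and so within the sham range. Markers of border macrophages, which line the meninges and vessels, rose in 5 of 12 cases, among them *Pf4* (log2 fold change 3.96 ± 0.68, adjusted p = 6.78e-05) and *Stab1* (log2 fold change 3.09 ± 0.58, adjusted p = 0.000222). That count was 2 without MCAO replicate E or sham replicate C or D, and 3 without sham replicate A or B and with the day 3 libraries fitted alone.

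Neutrophil RNA was highest in replicate C, with E next. The summed level of 16 neutrophil genes was 10.7, 25.3, 759, 17.1 and 106 CPM after MCAO and 2.34 to 7.98 CPM in sham. Unoperated controls summed to 8.37 to 21.4 CPM, a range that held MCAO replicates A and D. *S100a8* was at 2.67, 4.97, 328, 4.88 and 35.3 CPM after MCAO and at 0.725, 1.38, 0 and 0 CPM in sham (log2 fold change 6.96 ± 1.36, adjusted p = 0.000415). *S100a9*, its partner in calprotectin (chr3:90692632-90695721), was at 1.601, 8.59, 246, 4.39 and 31.3 CPM after MCAO and gave 2 counts over the shams, a ratio of 263-fold (95% interval 72.4 to 2173). These and *Mmp9* (log2 fold change 3.04 ± 0.74, adjusted p = 0.00493) were the 3 members called (18.75%, beside 3.76% of all genes). Their count was 0 without MCAO replicate C, with the day 3 libraries fitted alone and without MCAO replicates A and C together, and 5 without MCAO replicate A and with no filter on low counts. The granule gene *Ngp* gave 3 counts over the 5 MCAO libraries and 1 over the shams. Of 7 genes of T, B and NK cells none was called, and their sums overlapped, at 40.0 to 91.8 CPM after MCAO and 21.96 to 96.5 CPM in sham.

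**Figure D3:**
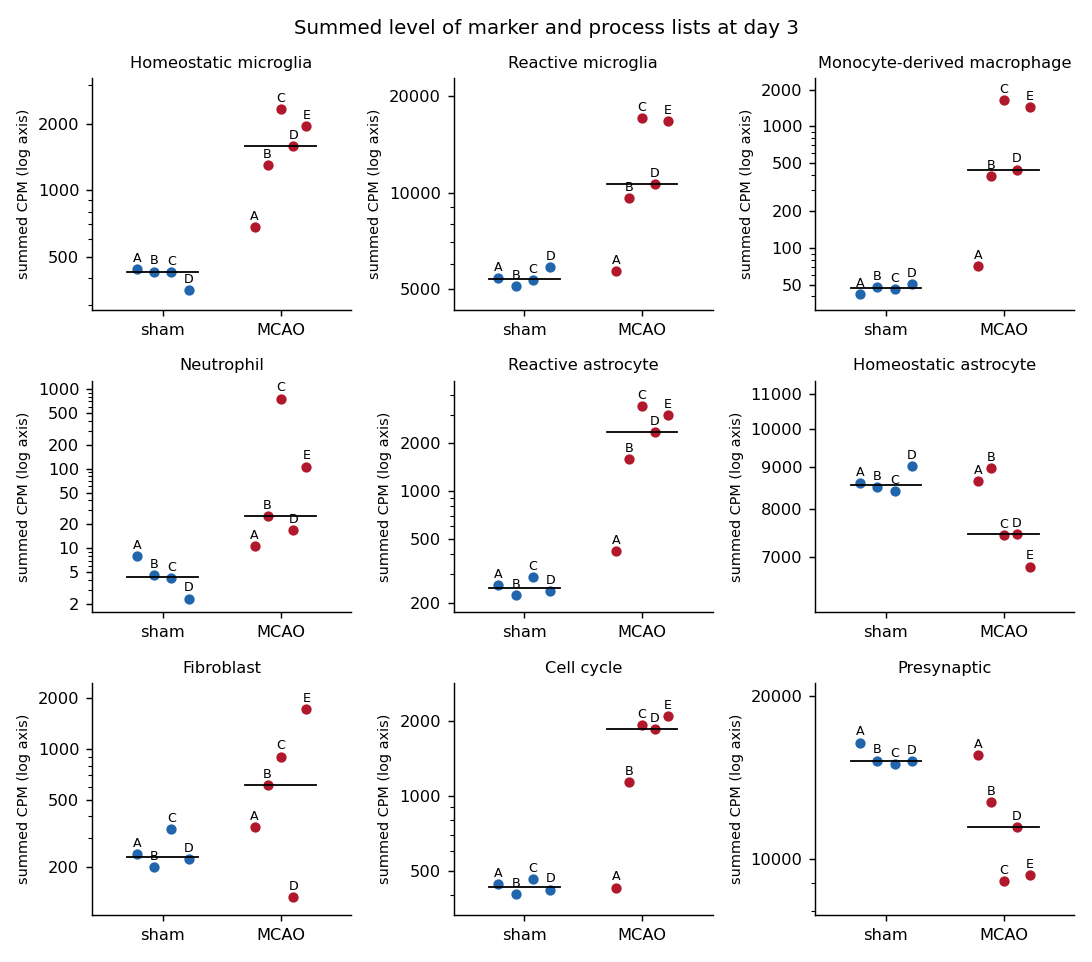
Summed CPM, on log axes that differ between panels, of the genes tested in 9 lists, with 1 point for each sham library (blue, A to D) and each MCAO library (red, A to E) of day 3 and a bar at the group median. Homeostatic microglial, macrophage and reactive astrocyte sums lie above all shams in all 5 MCAO libraries, reactive microglial sums in all but A, neutrophil RNA peaks in replicate C, fibroblast RNA in replicate E, and presynaptic RNA is lower than in any sham in 4 MCAO libraries but not in A.

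Chemokine genes rose in part. Of 19 CC chemokines and receptors tested 7 rose (36.8%), and of 17 of the CXC and CX3C family 6 rose (35.3%), beside 3.76% of all genes. The first count was 2 without MCAO replicate C or sham replicate A or C, 3 without MCAO replicate E or sham replicate B or D, and 4 with the day 3 libraries fitted alone and when scaled to the spike-ins. The latter was 3 without MCAO replicate C and with the day 3 libraries fitted alone. *Ccl4*, a chemokine made by activated microglia, was at 0.534, 4.52, 26.0, 9.77 and 11.9 CPM after MCAO and at 0 in every sham, at least 32.4-fold higher. *Cxcl2*, a neutrophil attractant, was at 0.534, 0, 141, 0 and 8.81 CPM after MCAO and gave 1 count over the shams, with replicate C above all others and B and D at 0. *Ccl2*, the ligand of CCR2, was at 0, 1.81, 20.0, 4.39 and 12.8 CPM and 0.725, 0.923, 0 and 0 CPM and was not called (adjusted p = 0.0263). *Cx3cl1*, the neuronal fractalkine that CX3CR1 binds, was at 517 ± 99.0 CPM (SD, n = 5) and 792 ± 91.8 CPM (SD, n = 4) and was not called (log2 fold change -0.62 ± 0.23, adjusted p = 0.0948).

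Genes of IL-1, TNF and IL-6 signalling rose in part. In the list of IL-1, TNF and NF-kB genes 9 of 22 rose (40.9%, beside 3.76% of all genes). The number was 3 with the day 3 libraries fitted alone, 4 without MCAO replicate C, and 5 without sham replicate C. *Il1b* was at 0, 2.71, 118, 3.42 and 5.73 CPM after MCAO with 2 counts over the shams, and its value in replicate C exceeded the sum of the other 4. Transcripts of *Tnf* were at 0, 1.81, 10.5, 2.44 and 1.32 CPM after MCAO (adjusted p = 0.0572) and those of *Il6* at 0, 0, 1.498, 0 and 1.32 CPM (adjusted p = 0.443). Of 14 genes of the IL-6 family and STAT3, 8 rose. This count was 2 with the day 3 libraries fitted alone, and 5 without MCAO replicate C or sham replicate A or C. *Clcf1*, a cytokine of the IL-6 family, was called (log2 fold change 3.31 ± 0.69, adjusted p = 0.000914). The genes that rose also included *Stat3*, at 89.7, 203, 372, 208 and 318 CPM after MCAO and 98.3, 90.0, 90.6 and 105 CPM in sham (log2 fold change 1.31 ± 0.22, adjusted p = 6.41e-05), its feedback inhibitor *Socs3* (log2 fold change 3.30 ± 0.68, adjusted p = 0.00081) and the oncostatin M receptor *Osmr* (log2 fold change 2.37 ± 0.45, adjusted p = 0.000253). *Stat3* in replicate A lay just below the sham range.

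Genes of complement, Fc receptors and antigen presentation rose, where 3.76% of all genes were called higher. The 3 chains of C1q, which starts the classical complement cascade, rose together, with *C1qa* at 95.02, 274, 643, 359 and 572 CPM after MCAO and 37.0, 46.6, 37.4 and 32.8 CPM in sham (log2 fold change 3.34 ± 0.42, adjusted p = 2.32e-07). *C1qb* rose by 3.32 ± 0.40 and *C1qc* by 3.19 ± 0.37 on the log2 scale. In all 9 of 20 complement genes rose, among them *C3ar1* (4.61 ± 0.65) and *C4b* (3.58 ± 0.41), while *C3* was at 3.44 ± 5.64 CPM (SD, n = 5) and 0.675 ± 1.121 CPM (SD, n = 4) (adjusted p = 0.219). Of 6 Fc receptor genes 5 rose, and *Fcgrt*, the neonatal Fc receptor, was not called (adjusted p = 0.0535). *Fcgr4* was at 1.07, 12.7, 23.5, 10.3 and 18.1 CPM after MCAO with 2 counts over the shams. In MHC class I 6 of 11 genes rose, with *B2m* at 351, 674, 1257, 552 and 995 CPM after MCAO and 229, 185, 204 and 194 CPM in sham (log2 fold change 1.91 ± 0.28, adjusted p = 7.15e-06). In class II 5 of 8 rose, with the invariant chain *Cd74* at 6.41, 10.8, 79.4, 11.2 and 54.6 CPM and 1.09, 4.62, 0.934 and 0.937 CPM (log2 fold change 4.08 ± 0.71, adjusted p = 7.95e-05). The MHC and C4 genes have close copies, so counts may be split between them.

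Genes induced by interferon rose in part. Of 37 tested, 19 rose (51.4%, beside 3.76% of all genes) and none fell. The log2 fold change was positive in 36, and the median of the list was 2.21. *Ifitm3*, a membrane protein that blocks viral entry, had the highest level, at 55.5, 226, 389.5, 186 and 376 CPM after MCAO and 34.1, 33.2, 42.5 and 31.9 CPM in sham (log2 fold change 2.80 ± 0.31, adjusted p = 3.34e-08). *Ifit3* was at 7.47, 52.0, 20.0, 32.7 and 47.2 CPM and 3.99, 5.54, 10.3 and 4.22 CPM (log2 fold change 2.42 ± 0.47, adjusted p = 0.000412), with replicate A within the sham range. *Irf7*, the factor that amplifies interferon production, rose by 3.13 ± 0.76 and *Irf9*, the DNA-binding part of the interferon-activated complex ISGF3, by 1.70 ± 0.30. *Isg15* was at 18.4 ± 14.9 CPM (SD, n = 5) and 2.36 ± 2.79 CPM (SD, n = 4) and was not called (adjusted p = 0.0155). *Ifit3*, *Gbp3* and *Trim30a* have close copies in the genome, so their counts may be split. Replicate A had the lowest summed level of the 5, at 243 CPM, against 179.6 to 198 CPM in sham and up to 1180.2 CPM in replicate E.

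ISGF3 and the IRF factors bind elements with a pair of GAAA repeats. The motif GAAANNGAA, on either strand, was found in 18 of 32 RefSeq promoter windows (56.2%) that 26 of the 37 interferon genes had, against 8.56% of all 32851 windows of the same length (250 bases before to 50 after the start, GRCm38.p6). Among the members called higher it was in 8 of 18 windows (44.4%) and among those not called in 10 of 14 (71.4%), so the share was not greater among the genes called. The last 120 bases before the start of the 4 called members with the largest fold change that hold it there are shown to let the element be seen beside the start, with the matches in capitals. They are at chr3:142559924-142560043 (+ strand) for *Gbp3*, chr7:104465194-104465313 (- strand) for *Trim30a*, chr11:58199436-58199555 (+ strand) for *Igtp* and chr19:34583409-34583528 (+ strand) for *Ifit3*. The matches end between 25 and 93 bases before the start.
*Gbp3*: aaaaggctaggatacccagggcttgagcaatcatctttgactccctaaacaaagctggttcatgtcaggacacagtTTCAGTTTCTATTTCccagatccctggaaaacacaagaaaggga
*Trim30a*: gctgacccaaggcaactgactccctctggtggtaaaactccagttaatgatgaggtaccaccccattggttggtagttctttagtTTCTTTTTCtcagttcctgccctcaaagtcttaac
*Igtp*: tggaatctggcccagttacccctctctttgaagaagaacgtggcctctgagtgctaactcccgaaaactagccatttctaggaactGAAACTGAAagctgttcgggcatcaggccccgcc
*Ifit3*: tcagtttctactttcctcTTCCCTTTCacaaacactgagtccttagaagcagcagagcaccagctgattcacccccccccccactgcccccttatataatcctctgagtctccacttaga
A match is a description of the letters and does not show that a factor bound there.

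Most lysosomal genes rose, and a minority of the lipid-handling genes of phagocytes. In the lysosome list 21 of 31 rose (67.7%, beside 3.76% of all genes) and none fell, with a median log2 fold change of 1.44. The count was 12 with the day 3 libraries fitted alone, and 13 when scaled to the spike-ins. Besides *Ctsd*, the cathepsins *Ctss* (2.66 ± 0.31 on the log2 scale), *Ctsc* (3.55 ± 0.60) and *Ctsb* (1.44 ± 0.34) rose, as did *Grn*, progranulin, from 73.8 to 376 CPM (log2 fold change 2.35 ± 0.33, adjusted p = 2.95e-06). *Psap*, prosaposin, was at 717 ± 82.7 CPM (SD, n = 5) and 952 ± 390.1 CPM (SD, n = 4) and was not called (log2 fold change -0.41 ± 0.53, adjusted p = 0.702). Of 20 lipid genes 5 rose, including the scavenger receptor *Msr1* and the lipid droplet coat *Plin2*, the latter at 2.67, 70.0, 239, 82.5 and 233 CPM after MCAO and 6.17, 2.77, 3.27 and 1.41 CPM in sham (log2 fold change 5.13 ± 0.84, adjusted p = 2.74e-05). The count of lipid genes was 2 with the day 3 libraries fitted alone, and 3 without sham replicate B. *Hmox1*, which breaks down heme, was at 1.07, 18.98, 80.9, 79.6 and 109 CPM and 1.09, 3.23, 1.40 and 2.81 CPM (log2 fold change 4.76 ± 0.83, adjusted p = 8.61e-05), with replicate A below all shams. It was among 5 of 14 iron and heme genes that rose. That count was 1 without MCAO replicate C or sham replicate D and with the day 3 libraries fitted alone, 2 without sham replicate A or C and when scaled to the spike-ins, and 3 without MCAO replicate E. The part of the hemoglobin RNA given above in these values was not tested. Lower in cholesterol synthesis was only *Fdft1* of 23 genes (log2 fold change -0.77 ± 0.20, adjusted p = 0.00997). That was 4.35% of the list, beside the 0.260% of all genes called lower. The number lower was 0 without MCAO replicate C, D or E or sham replicate A or D, with the day 3 libraries fitted alone and without MCAO replicates A and C together, 2 by DESeq2 and with no filter on low counts, and 3 without MCAO replicate A.

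Cell cycle genes rose, and 4 of the 5 MCAO libraries held the higher levels. Their summed level was 429, 1135, 1922, 1858 and 2087 CPM after MCAO and 444, 406, 465 and 422 CPM in sham, so that replicate A lay within the shams and the other 4 at more than 2 times the highest of them. Of 53 tested 29 rose (54.7%, beside 3.76% of all genes) and none fell, with a median log2 fold change of 2.95. *Top2a* (chr11:98992943-99024189), the topoisomerase of dividing cells, was at 6.41, 84.0, 146, 135 and 169 CPM after MCAO and at 2.54, 0.462, 1.40 and 0.937 CPM in sham (log2 fold change 6.21 ± 0.76, adjusted p = 1.39e-07). *Mki67*, the proliferation antigen Ki-67, was at 2.14, 18.5, 34.0, 24.4 and 36.1 CPM with 1 count over the shams, a ratio of 217-fold (95% interval 38.5 to 8589). *Ube2c*, the ubiquitin conjugase of the anaphase-promoting complex, was at 1.07, 23.9, 42.9, 31.3 and 41.9 CPM with 2 counts over the shams, and *Pbk*, a mitotic kinase, at 3.74, 13.1, 12.98, 19.5 and 17.6 CPM with 1 count. *Ccnd1*, the G1 cyclin that glia express at rest, was at 154, 269, 526, 509 and 465 CPM and 173, 164, 208 and 173 CPM (log2 fold change 1.10 ± 0.23, adjusted p = 0.000783), with replicate A below all shams. The replication clamp *Pcna* was at 25.8 ± 10.1 CPM (SD, n = 5) and 14.8 ± 4.30 CPM (SD, n = 4) and was not called (adjusted p = 0.0838).

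Promoters of mitotic genes often carry a cell cycle homology element (TTTGAA) below CCAAT boxes. Both motifs together, on either strand, were found in 20 of the 29 promoter windows of members called higher (69%), in 4 of 21 windows of members not called (19%) and in 6.95% of all windows. TTTGAA alone was in 20 of 29 (69%), 6 of 21 (28.6%) and 17.9% of windows, and CCAAT alone in 25 of 29 (86.2%), 13 of 21 (61.9%) and 37.4%. A window existed for 46 of the 53 members. The choice of genes to show left out the same chromosome as for the interferon genes. The last 120 bases before the start are shown for the 4 remaining called members with the largest fold change that hold both, because the elements recur close to the start in each. They are at chr2:164769809-164769928 (+ strand) for *Ube2c*, chr11:99024190-99024309 (- strand) for *Top2a*, chr10:69352913-69353032 (- strand) for *Cdk1* and chr7:80294356-80294475 (+ strand) for *Prc1*. Capitals mark the matches, read on the strand of the gene, so that ATTGG and TTCAAA are the reverse of CCAAT and TTTGAA.
*Ube2c*: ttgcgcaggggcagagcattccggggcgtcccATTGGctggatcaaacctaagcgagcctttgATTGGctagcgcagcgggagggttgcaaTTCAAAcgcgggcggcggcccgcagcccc
*Top2a*: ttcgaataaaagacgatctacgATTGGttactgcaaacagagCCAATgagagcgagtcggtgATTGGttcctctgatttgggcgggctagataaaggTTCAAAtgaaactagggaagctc
*Cdk1*: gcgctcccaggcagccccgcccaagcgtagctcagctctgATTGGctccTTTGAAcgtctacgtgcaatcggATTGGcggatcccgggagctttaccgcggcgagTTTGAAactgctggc
*Prc1*: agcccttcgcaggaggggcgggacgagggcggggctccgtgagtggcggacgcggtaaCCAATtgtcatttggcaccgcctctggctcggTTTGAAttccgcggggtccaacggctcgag
The match nearest to the start ends between 9 and 24 bases before it in these 4 genes.

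Reactive astrocyte genes rose while most homeostatic astrocyte genes were not called. Of 32 reactive genes 14 rose (43.75%) and none fell. Their median log2 fold change was 2.51, or 2.29 with members at 0 in sham set to their bound. Of 18 homeostatic genes 1 rose (5.56%), near the 3.76% of all genes called higher. The homeostatic median was 0.09, and -0.15 when scaled to the spike-ins. The reactive count was 8 with the day 3 libraries fitted alone. The homeostatic count was 0 without MCAO replicate C or sham replicate A, B or D and when scaled to the spike-ins, 2 with no filter on low counts, and 3 without MCAO replicate A, by DESeq2 and without MCAO replicates A and C together. The number of homeostatic genes called lower, 0 above, was 1 without MCAO replicate A or B. *Gfap*, the intermediate filament of astrocytes, was at 192, 698, 1185, 1087 and 1029.9 CPM after MCAO and at 39.9, 39.7, 44.8 and 31.4 CPM in sham (log2 fold change 4.42 ± 0.42, adjusted p = 5.36e-10), the smallest adjusted p of all genes. All MCAO libraries lay above all shams. *Vim*, which encodes vimentin and is shared with microglia, endothelium and fibroblasts, rose by 3.78 ± 0.44 on the log2 scale. *Serpina3n*, a serine protease inhibitor, was at 6.94, 73.2, 216, 143 and 152 CPM and 6.53, 2.77, 1.87 and 0.937 CPM (log2 fold change 5.19 ± 0.61, adjusted p = 6.79e-08), and *Timp1*, an inhibitor of matrix metalloproteinases, at 5.87, 47.4, 126, 72.3 and 133 CPM and 1.81, 1.38, 1.40 and 0.468 CPM (log2 fold change 5.83 ± 0.78, adjusted p = 1.04e-06). *Lcn2*, lipocalin 2, was at 0, 14.9, 82.4, 22.95 and 34.8 CPM and 2.18, 0, 1.40 and 0 CPM (log2 fold change 4.93 ± 0.92, adjusted p = 0.0002), with replicate A within the sham range. The water channel *Aqp4* was the homeostatic gene that rose, at 136 ± 26.0 CPM (SD, n = 5) and 71.0 ± 14.3 CPM (SD, n = 4) (log2 fold change 0.94 ± 0.22, adjusted p = 0.00294). *Slc1a2*, the main glutamate transporter, was at 2677, 2417, 1518, 1933 and 1538 CPM and 2833, 2828, 2736 and 3102 CPM (log2 fold change -0.51 ± 0.14, adjusted p = 0.0109), with no overlap, and was not called.

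A minority of oligodendrocyte genes were called. The shares called higher were 11.1% in the myelin list and 21.4% in the precursor list, beside 3.76% of all genes. In the myelin list 2 of 18 rose, *Trf*, transferrin, at 53.9, 453, 672, 923 and 620.0 CPM after MCAO and 89.2, 120.03, 52.3 and 67.0 CPM in sham (log2 fold change 2.73 ± 0.46, adjusted p = 5.29e-05), and *Apod*, apolipoprotein D (log2 fold change 2.09 ± 0.23, adjusted p = 2.24e-08). *Mbp*, myelin basic protein, was at 1518 ± 508 CPM (SD, n = 5) and 1265 ± 444 CPM (SD, n = 4) and was not called. Of 14 precursor genes 3 rose, *Bcas1* (log2 fold change 1.46 ± 0.38, adjusted p = 0.00826), *Sox10* (log2 fold change 1.07 ± 0.28, adjusted p = 0.00935) and *Olig1* (log2 fold change 0.85 ± 0.21, adjusted p = 0.00471). Their count was 0 without MCAO replicate C, D or E or sham replicate A, C or D, with the day 3 libraries fitted alone and when scaled to the spike-ins.

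Vascular and matrix genes rose in part. Of 21 endothelial genes 6 rose (28.6%, beside 3.76% of all genes). This count was 0 with the day 3 libraries fitted alone, 1 without MCAO replicate E or sham replicate B or C, 2 without MCAO replicate C or sham replicate A and when scaled to the spike-ins, 3 without sham replicate D, and 10 by DESeq2. *Pecam1*, a junction protein also found on platelets and myeloid cells, was at 27.8, 89.0, 201, 57.1 and 147 CPM after MCAO and 30.8, 28.6, 21.0 and 22.02 CPM in sham (log2 fold change 2.02 ± 0.35, adjusted p = 8.36e-05). The barrier gene *Cldn5*, claudin 5, was at 22.3 ± 4.61 CPM (SD, n = 5) and 9.65 ± 3.23 CPM (SD, n = 4) (adjusted p = 0.0194), and the transporter *Slc2a1* at 68.9 ± 27.6 CPM (SD, n = 5) and 56.5 ± 9.29 CPM (SD, n = 4). *Icam1*, which leukocytes bind, rose (log2 fold change 3.94 ± 0.77, adjusted p = 0.0004), whereas *Vcam1* was at 37.4 ± 13.1 CPM (SD, n = 5) and 25.3 ± 7.36 CPM (SD, n = 4) (adjusted p = 0.19).

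In the list of collagens and matrix proteins 14 of 35 rose (40%, beside 3.76% of all genes) and all 35 had a positive log2 fold change. The count was 3 with the day 3 libraries fitted alone, 7 without MCAO replicate E or sham replicate A, B or D, 8 without sham replicate C, and 9 without MCAO replicate C. *Col3a1*, a fibrillar collagen, was at 12.3, 50.2, 105, 4.88 and 279 CPM after MCAO and 5.80, 5.54, 3.27 and 8.90 CPM in sham (log2 fold change 3.93 ± 0.91, adjusted p = 0.00306), with replicate D inside the sham range. *Col4a1*, a collagen of vessel basement membrane, was at 37.9, 60.1, 148, 56.6 and 159 CPM and 29.7, 24.0, 24.8 and 29.5 CPM (log2 fold change 1.77 ± 0.36, adjusted p = 0.000717) with no overlap. *Fn1*, fibronectin, rose by 2.41 ± 0.48 and *Sparc*, a matrix protein of endothelium and microglia, by 1.54 ± 0.25. Fibroblast markers summed to 346, 613, 902, 133 and 1723 CPM after MCAO and 202 to 335 CPM in sham, and 3 of 13 rose, highest in replicate E. This count was 0 without MCAO replicate E or sham replicate A, B or D and with the day 3 libraries fitted alone, 1 without MCAO replicate C or sham replicate C, and 5 without MCAO replicate A or D. Annexin, S100 and cortical cytoskeleton genes, used by migrating and spreading cells, rose in 14 of 21 cases, such as *Anxa2* (log2 fold change 2.88 ± 0.43, adjusted p = 8.31e-06) and *Lgals1* (log2 fold change 3.37 ± 0.47, adjusted p = 2.73e-06). Their count was 9 with the day 3 libraries fitted alone.

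**Figure D4:**
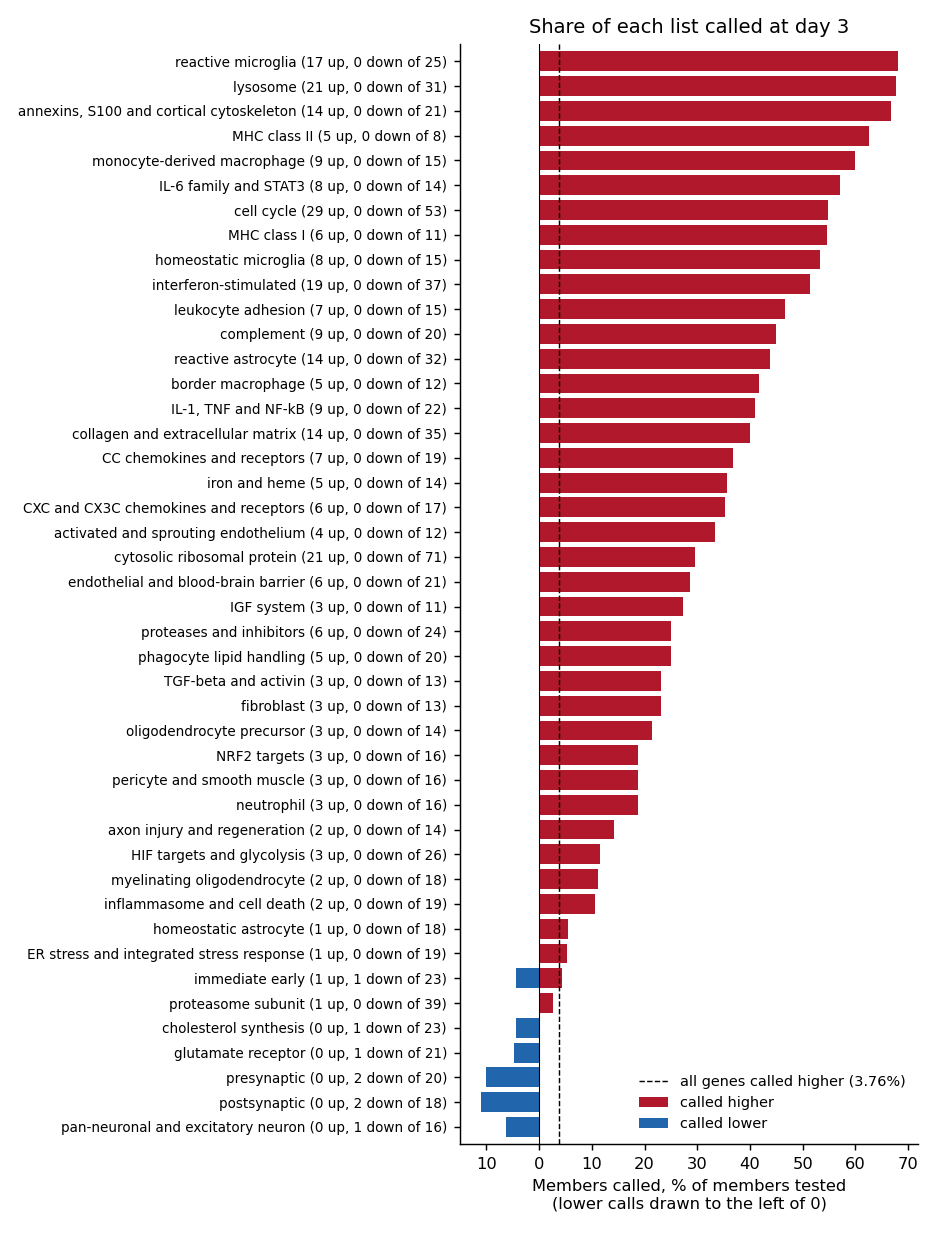
Percent of the members tested that were called higher (red, to the right of 0) or lower (blue, to the left) at day 3, for lists with at least 8 members tested and at least 1 member called, with the 3.76% of all genes that were called higher as a dashed line. Reactive microglia (17 of 25) and lysosome (21 of 31) stand at the top, and at the bottom the cholesterol, glutamate receptor, synaptic and neuron lists hold calls on the lower side alone.

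Some genes of synapses fell, by small amounts. Synaptic lists had 2 of 20 presynaptic, 2 of 18 postsynaptic and 1 of 21 glutamate receptor genes called lower and none higher, with medians of -0.40, -0.34 and -0.45 on the log2 scale. These were 10, 11.1 and 4.76% of their members, beside the 0.260% of all genes that were called lower. The glutamate receptor genes summed to 5097, 4103, 3025, 3994 and 3363 CPM after MCAO and 5268, 5165, 5365 and 5132 CPM in sham, so that all MCAO libraries lay below all shams. Unoperated controls summed to 4779 to 4982 CPM, below every sham. MCAO replicate A lay above these controls and replicates B to E below them. Without MCAO replicate A the 3 counts were 7, 3 and 5, without D 0, 0 and 1, without E 0, 1 and 0, and without sham replicate C or D 1, 1 and 0. All were 0 without MCAO replicate C, without sham replicate A or B, and with the 9 libraries fitted alone. The glutamate receptor count was also 0 without MCAO replicate B and 3 when scaled to the spike-ins, and the presynaptic count was 1 by DESeq2. *Snap25*, a SNARE protein of vesicle fusion, was at 1269.5, 942, 876, 865 and 733 CPM after MCAO and 1725, 1547, 1320.2 and 1368 CPM in sham (log2 fold change -0.67 ± 0.16, adjusted p = 0.0043), with no overlap. *Dlgap1*, a scaffold of the postsynaptic density, was at 1560.4, 1122, 886, 764 and 847 CPM and 1684, 1559.9, 1653 and 1779.7 CPM (log2 fold change -0.69 ± 0.17, adjusted p = 0.00527), with replicate A within the sham range. *Homer1*, which links metabotropic glutamate receptors to the scaffold, was at 180.1 ± 39.1 CPM (SD, n = 5) after MCAO and 316 ± 52.4 CPM (SD, n = 4) in sham (log2 fold change -0.81 ± 0.19, adjusted p = 0.00281). The AMPA receptor subunit *Gria3* (log2 fold change -0.68 ± 0.17, adjusted p = 0.00817) and the active zone protein *Rims1* (log2 fold change -0.59 ± 0.14, adjusted p = 0.00501) were the others called. *Ntrk2*, the BDNF receptor of neurons and astrocytes, was at 676, 569, 463, 509 and 562 CPM and 800.4, 862, 853 and 889 CPM (log2 fold change -0.61 ± 0.12, adjusted p = 0.000494).

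The abundant neuronal genes *Nrgn*, *Camk2a* and *Slc17a7* were at -0.24 ± 0.26, -0.30 ± 0.17 and -0.29 ± 0.20 on the log2 scale, and none of them was called. No member of the interneuron list (14 tested, median -0.34) or of the GABA-A receptor list (12, median -0.44) was called. The number of GABA-A receptor genes called lower was 1 without MCAO replicates A and C together, and 2 without MCAO replicate A. The 10 largest falls without overlap were *Etnppl*, *Dok5*, *Ptchd4*, *Clvs2*, *Megf11*, *Gm20386*, *Cbfa2t2*, *Prodh*, *Prune1* and *Fam161b*. *Etnppl*, an enzyme of phosphoethanolamine breakdown that astrocytes express, was at 8.01, 4.52, 3.995, 0.488 and 3.97 CPM after MCAO and 12.0, 9.69, 16.8 and 17.3 CPM in sham (log2 fold change -1.73 ± 0.44, adjusted p = 0.00764). *Clvs2*, clavesin 2, a lipid-binding protein of neurons, was at 15.5, 11.7, 9.99, 8.30 and 6.61 CPM and 24.3, 26.3, 26.2 and 22.02 CPM (log2 fold change -1.25 ± 0.27, adjusted p = 0.00127). *Prodh*, the first enzyme of proline breakdown, was at 7.47, 6.33, 7.99, 11.7 and 6.17 CPM and 14.51, 14.8, 14.0 and 24.8 CPM (log2 fold change -1.10 ± 0.29, adjusted p = 0.00922). Levels of these falls were low, with sham means from 14.0 to 53.9 CPM, and the rule for naming them asked that the groups not overlap.

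Shares of calls differed among general processes, where 3.76% of all genes were called higher. None of 79 oxidative phosphorylation genes, 13 heat shock genes or 13 clock genes was called, with medians of -0.03, -0.10 and -0.46. The number of clock genes called lower was 1 when scaled to the spike-ins. Among glycolysis and hypoxia genes 3 of 26 rose (11.5%), among them the hexokinase *Hk2* (log2 fold change 2.69 ± 0.42, adjusted p = 1.34e-05), with a median of 0.02 that turned to -0.23 when scaled to the spike-ins. The count was 1 with the day 3 libraries fitted alone. Cytosolic ribosomal protein genes rose in 21 of 71 cases (29.6%), with a median of 0.41, and *Rps12* was at 286, 425, 674, 485 and 627 CPM after MCAO and 268, 242, 251 and 318 CPM in sham (log2 fold change 0.89 ± 0.20, adjusted p = 0.00245). That count was 0 when scaled to the spike-ins, 4 with the day 3 libraries fitted alone, 5 without MCAO replicate C, 8 without MCAO replicate E, 10 without sham replicate A or B, and 13 without sham replicate C. Many of these genes have processed pseudogenes, so their counts are uncertain.

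The effect at day 3 was set beside those at 24 hours and day 7, each against the shams of its own time. At 24 hours 18 genes were called and 16 of them were also called in the same direction at day 3 (88.9% of the 18, 2.0% of the 802). At day 7 698 were called (413 higher, 285 lower), and 239 of these were called in the same direction at day 3 (34.2% of the 698, 29.8% of the 802). *Gfap* was at 3.16 ± 0.40 at 24 hours, 4.42 ± 0.42 at day 3 and 3.10 ± 0.39 at day 7 on the log2 scale, called at each time. *Top2a* was at 1.80 ± 0.85, 6.21 ± 0.76 and 3.72 ± 0.72, called at days 3 and 7. *Spp1* was at 2.31 ± 1.24, 7.05 ± 1.21 and 8.46 ± 1.29, and *Col3a1* at 1.70 ± 1.07, 3.93 ± 0.91 and 6.74 ± 1.07, both called at days 3 and 7. *Apoe*, not called at 24 hours or day 3, was called at day 7 (1.26 ± 0.25, adjusted p = 0.000756).

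**Figure D5:**
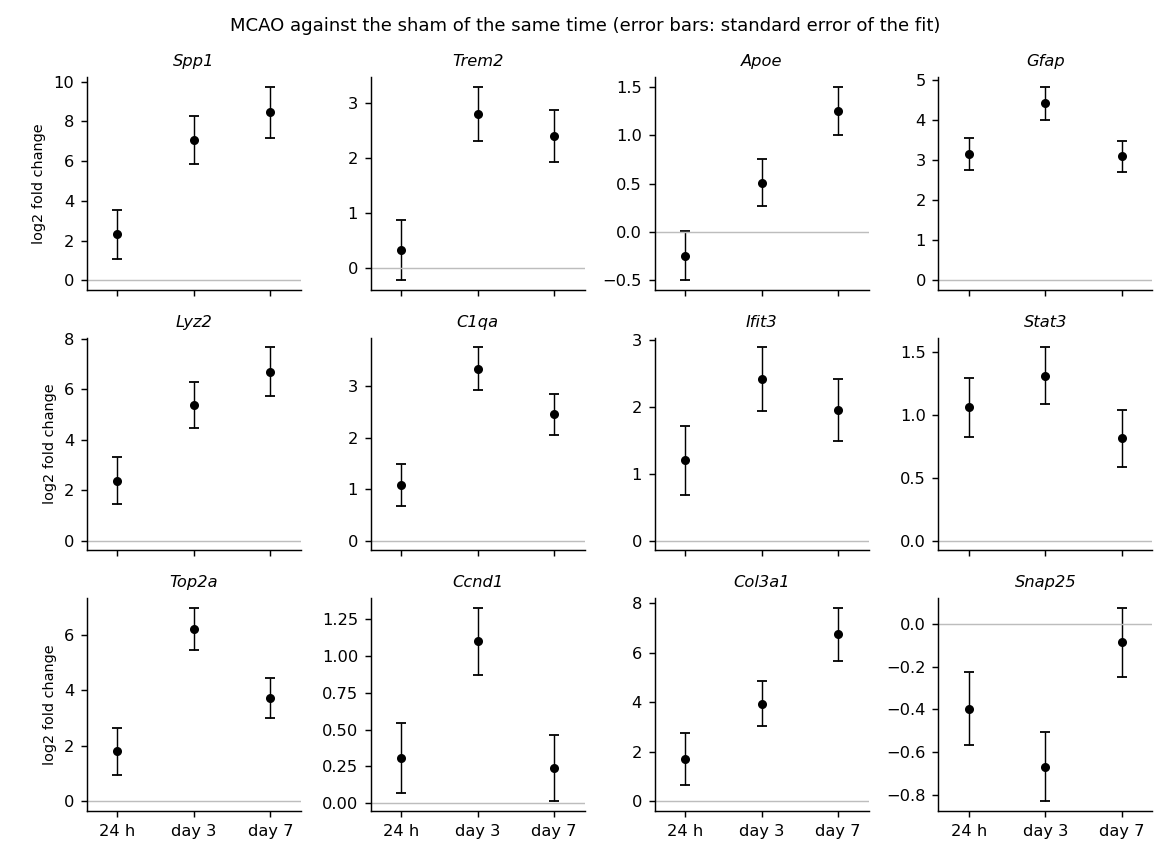
Fitted log2 fold change, MCAO minus the shams of the same time, of 12 genes at 24 hours, day 3 and day 7. Vertical axes differ between genes, and a grey line marks 0. Error bars are 1 approximate standard error, worked back from the F statistic of the test. Different mice were sampled at each time; *Gfap* stands above 3 at each, *Trem2* near 0 at 24 hours and above 2 later, and *Snap25* below 0 at day 3.

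Tests of the differences themselves gave few calls. The MCAO effect differed between day 3 and day 7 for 0 genes by edgeR (3231 at an unadjusted p under 0.05, smallest adjusted p 0.0100) and for 57 by DESeq2. None of the differences just listed passed, with an adjusted p of 0.276 for *Top2a*, 0.333 for *Col3a1*, 0.201 for *Gfap* and 0.269 for *Apoe*. Between day 3 and 24 hours 2 genes were called (0.0100% of genes tested). *Tmem181b-ps*, a pseudogene, was among them, and its call turned on the MCAO libraries of 24 hours. It was at 12.8, 12.2, 9.99, 8.30 and 5.29 CPM and 5.44, 5.08, 6.07 and 8.43 CPM at day 3 and gave 1 count in all over the 4 MCAO libraries of 24 hours.

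Sham surgery at day 3 was compared with no surgery to give the background of the operation. By edgeR 0 genes were called (731 at an unadjusted p under 0.05), by DESeq2 1, and with only these groups in the fit 4. *Gfap* in sham against control was at -0.35 on the log2 scale, *Spp1* at -1.69 and *Lyz2* at -0.71, each with an adjusted p of 1.

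The same volume of spike-in RNA was added to each library, so its share of the counts reports on how much RNA of genes was counted beside it. Spike-ins made up 4.38, 4.82, 5.97, 5.37 and 5.39% of counts on genes and spike-ins after MCAO and 4.31, 4.13, 4.09 and 4.41% in sham. The mean was 5.19 ± 0.607% (SD, n = 5) against 4.24 ± 0.151% (SD, n = 4), a difference of 0.95 percentage points (exact two-sided permutation test, p = 0.0317, where the smallest p possible is 0.00794). Replicate A lay within the sham range and replicate C was highest. As a share of all alignments listed the difference was 0.37 percentage points (exact permutation test, p = 0.0794).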

How the data were processed

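Bulk RNA of injured mouse brain was sequenced as 3′ end libraries (QuantSeq FWD, 400 ng RNA and 1 µl ERCC spike-ins per library, 85-base reads). Per the study's methods, TrimmomaticSE was used for trimming, SortMeRNA took out reads of mitochondrial DNA and rRNA, and STAR 2.5.2b mapped what was left to the GRCm38 genome with added spike-in sequences. Reads per gene came from htseq-count (union mode, Gencode vM8 annotation), and the strand setting is not given in the sources used here. The deposited values are raw read counts, 1 table for each library. A log2 matrix of all 48 libraries, also deposited by the authors, was not used. Samples were grouped by their titles, and no label gave a batch. No pair of libraries held identical counts.

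Spike-ins and the 5 rows of reads without a gene stayed out of library sizes and tests. In the libraries of day 3, 21.3 to 24.5% of the alignments listed fell on no gene, 29.5 to 36.9% were not unique and 0.391 to 0.439% were ambiguous. Symbols and positions came from Gencode vM21, on the same build, for 46488 of 46983 identifiers. Genes with more than 10 counts in all (19970) were fitted in 1 model of 11 groups over 48 libraries with edgeR 4.0.16 (quasi-likelihood test, TMM, R 4.3.3), with Benjamini-Hochberg adjustment over all genes. Calls needed an adjusted p below 0.01 and a log2 fold change beyond 0.58 in either direction. Adjusted p-values in the text are from this test. The libraries of day 3 held 1865528 to 2826735 counts on genes, and intervals of ratios, exact at 95%, cover counting error only. Folds against shams at 0 used a floor of 3 counts over the group. Spike-in shares were compared with an exact permutation test. The fitting code was tested on simulated data. Alternatives were DESeq2 1.42.0, its size factors, other filters, spike-in scaling, a fit of the compared groups alone, a replicate block and each replicate left out; leaving out replicates A and C together was chosen after seeing the data. Members and lists were chosen with earlier results of these data known. Genes were named by size of change (the 15 largest rises and 10 largest falls among called genes with a mean of at least 5 CPM and groups that did not overlap), from each interaction by the 5 largest calls in each direction, as members of a list, or, for *Apoe* and *Trem2*, always. Within a list the rule put called members with the largest fold first and then the others by level; the examples given depart from that order and were chosen after their values were seen, as was *Ntrk2*. Promoter windows are from RefSeq. Some genes are not reported here.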

Additional observations from a re-analysis of the deposited data

Results flagged for a closer look

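The MCAO effect at day 3 minus that at 24 hours was 7.33 on the log2 scale for *Tmem181b-ps*, a gene for which edgeR's test of that difference made a call. The value is fitted against MCAO libraries of 24 hours with 0 or 1 count and is no measure of size. The gene was not called at day 3.

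A library lay apart from the others of its group in 34 of 262 groups of values screened, where the gap to the nearest library, as a share of the range on the log2(CPM + 1) scale, passed Dixon's 95% value. Chance gives about 5%, and the genes are not independent. Among the MCAO libraries replicate A was the low one for *Trim30a* (0.869), *Cdk1* (0.844), *Ube2c* (0.815), *C4b* (0.783), *Top2a* (0.779), *Vim* (0.758), *Prc1* (0.751), *Trf* (0.749), *Lgals3* (0.748), *Mki67* (0.740), *Irf9* (0.739), *Pbk* (0.738), *Trem2* (0.728) and *Osmr* (0.718), and for the summed level of interferon-stimulated genes (0.712). Replicate C was the high one for *C3* (0.720).

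In sham, *Arg1*, *Ccr2*, *Cxcl2*, *Fcgr4*, *H19*, *Il6*, *Mki67*, *Ngp*, *Pbk*, *S100a9* and *Tnf* had a value of 1 because a single library held all of their counts, between 1 and 2. Replicate B was high for *Cd74* (0.928) and low for *Gbp3* (0.896), and replicate D was high for *Prodh* (0.909) and *Cbfa2t2* (0.838) and low for *Gria3* (0.915) and *Cx3cr1* (0.861). Replicate A of the shams had the most counts on genes (0.963).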

How the results depend on the processing

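The number of genes called at day 3 was 802 and moved to 339 with the compared groups fitted alone. The spread then came from those libraries only, and its part in the drop was not tested. With 1 replicate left out it ranged from 441 to 1353. It stayed within 1.5 times under DESeq2 (1033), DESeq2 size factors (809), other filters (829 and 931), spike-in scaling (594) and the replicate block (644). Spike-in scaling moved the share called higher from 93.5% to 78.0%, and leaving out MCAO replicate A to 80.4%. Replicate letters were not treated as pairs in the main fit. Deviations from the group mean correlated at -0.08, 0.04, -0.03 and 0.05 for the same letter and from -0.098 to 0.16 for different letters. Whether a letter marked a shared surgery or preparation cannot be told from these values. For the difference between day 3 and 24 hours, 2 calls became 5 by DESeq2, 6 with no filter, 4 without MCAO replicates A and C, and from 2 to 11 with 1 replicate left out. For that between day 3 and day 7, 0 became 57 by DESeq2, 37 with no filter, 3 with DESeq2 size factors, 1 with the groups alone, 1 when scaled to the spike-ins, 5 without A and C, and from 0 to 32 with 1 replicate left out, highest without MCAO replicate A of day 3. For sham against control 0 became 1 by DESeq2, 1 with no filter and 4 with the groups alone. The spike-in difference of 0.95 percentage points was 0.37 over all alignments and ranged from 0.754 to 1.15 with 1 replicate left out (exact permutation p from 0.0286 to 0.0714). Of 100 called genes named, 58 kept their call and none reversed under the alternatives run, and of the others *Mbp* turned to -0.0059 when scaled to the spike-ins. The causes were not tested. Low counts limit the smallest genes.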
